A study of Rattus norvegicus with 12 samples.

Results

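The genes described here are 10 genes that the literature on pancreatic β-cells groups as disallowed, meaning that other tissues express them and mature β-cells keep them low, or as markers of lost β-cell identity. They are Ldha, Slc16a1, Hk1, Acot7, Oat, Pdgfra, Igfbp4, Smad3, Cxcl12 and Aldh1a3, found by name among the 28727 named genes of a table of read counts. All 10 were in the table, and 7 of them passed the filter on low counts and could be tested. Ldha, Hk1 and Aldh1a3 did not pass it.

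The libraries came from INS-1-derived 832/13 cells, a clonal rat insulinoma line whose insulin secretion answers to glucose. Cells carried an adenovirus for GFP, the control, or an adenovirus for mouse ChREBPβ tagged with mCherry, and were kept in 2 mM or 11 mM glucose for 48 h. Every group thus carried an adenovirus, and no library came from cells without one. There were 3 libraries in each of the 4 groups, labelled a, b and c, and 12 in all. The labels do not say whether the letters stand for separate cultures, so the p-values below measure the spread between these libraries, which may be technical, although the study speaks of independent experiments.

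ChREBPβ is the shorter product of Mlxipl, a gene for a transcription factor that glucose activates. It lacks the inhibitory domain that holds the long isoform back at low glucose. In β-cells, the first step of glycolysis has a low affinity for glucose. Glycolysis is coupled to mitochondrial oxidation in part because lactate dehydrogenase A (Ldha) and the plasma membrane carrier of lactate and pyruvate (Slc16a1, also called MCT1) are kept low. A low-affinity first step and the lack of a route to and from lactate let insulin secretion follow blood glucose. Hk1, a hexokinase of high affinity, would blunt that dependence. Aldh1a3, which makes retinoic acid from retinaldehyde, is known as a marker of β-cells that have lost their identity in diabetes.

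Library totals over named genes lay between 25754488 and 60531215. The GFP libraries held 25754488 to 46654823 counts. Library a with ChREBPβ at 2 mM held 28595982 counts, and the other ChREBPβ libraries held 57088794 to 60531215. Raw read numbers below are thus not alike in depth between the viruses. Levels are given as CPM, the counts scaled to library size with TMM factors of 0.958 to 1.06. The rat Mlxipl entry lay between 201.9 and 277.1 CPM in the GFP libraries and between 180.7 and 211.8 CPM in the libraries labelled ChREBPβ, and it fell by 0.33 at 2 mM on the log2 scale (edgeR QL adjusted p = 2.03e-05). At 11 mM its log2 fold change was -0.14 (edgeR QL adjusted p = 0.0295), under the minimum fold. A separate entry named ChREBPb, whose counted sequence is not given in the sources used here, lay between 64.7 and 82.2 CPM in the GFP libraries and between 81.4 and 98.3 CPM in the ChREBPβ libraries. Its rise of 0.37 on the log2 scale passed the test at 11 mM (edgeR QL adjusted p = 6.9e-05), and its log2 fold change of 0.21 at 2 mM was under the minimum fold (edgeR QL adjusted p = 0.00841). The virus carried a mouse sequence, and which entry its transcripts would count toward was not tested. The glycolytic ChREBP target Pklr rose at 2 mM by 1.69 and at 11 mM by 1.08 on the log2 scale (edgeR QL adjusted p = 1.52e-16 and 1.72e-13). The summed level of 8 β-cell markers, most of it Ins1 and Iapp, lay between 15100 and 16900 CPM with GFP at 2 mM. With GFP in 11 mM glucose it lay between 11500 and 12500 CPM. With ChREBPβ it lay between 6300 and 6430 CPM at 2 mM and between 5350 and 5730 CPM at 11 mM. At either glucose concentration 7 of the 8 markers fell with ChREBPβ while Slc2a2 rose (23.2% of all genes fell at 2 mM and 19.1% at 11 mM). The summed level of 4 α- and δ-cell markers, nearly all of it Gcg, lay between 1590 and 1720 CPM with GFP. With ChREBPβ that sum lay between 429 and 502 CPM. The groups below therefore also differ in β-cell markers and in Gcg, whose part in the results was not tested. In bulk libraries, fewer cells expressing a gene and less of its RNA per cell cannot be told apart.

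Differences were tested with edgeR's quasi-likelihood (QL) test in a single fit of all 12 libraries and 14669 genes. A gene is said here to have risen or fallen where its Benjamini-Hochberg adjusted p was under 0.05 and its change at least 1.2-fold. With ChREBPβ at 2 mM glucose, 5 of the 7 tested genes changed, when 44.1% of all genes did. Slc16a1 and Acot7 rose (21.0% of all genes rose), and Pdgfra, Cxcl12 and Igfbp4 fell (23.2% of all genes fell). At 11 mM, 3 of the 7 changed, against 33.4% of all genes. Slc16a1 and Smad3 rose (14.3% of all genes) and Igfbp4 fell (19.1% of all genes). The 7 genes thus did not move one way as a group. Their median log2 fold change was -0.071 in 2 mM glucose and -0.13 at 11 mM, and that of all genes was -0.017 at both.

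From 2 to 11 mM glucose with GFP, 3 of the 7 changed, against 20.2% of all genes. Slc16a1 and Cxcl12 rose (10.2% of all genes) and Pdgfra fell (10.0% of all genes). With ChREBPβ, 2 of the 7 changed, again Slc16a1 and Cxcl12 and both upward. There 3.87% of all genes changed, 0.988% rising and 2.88% falling. The effect of ChREBPβ itself differed between the glucose concentrations for 2 of the 7, tested as the interaction of virus and glucose, when it did for 6.31% of all genes. That difference was positive for Pdgfra (1.56% of all genes) and negative for Slc16a1 (4.74% of all genes). These comparisons share libraries with each other, so they are not independent.

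**Figure D1:**
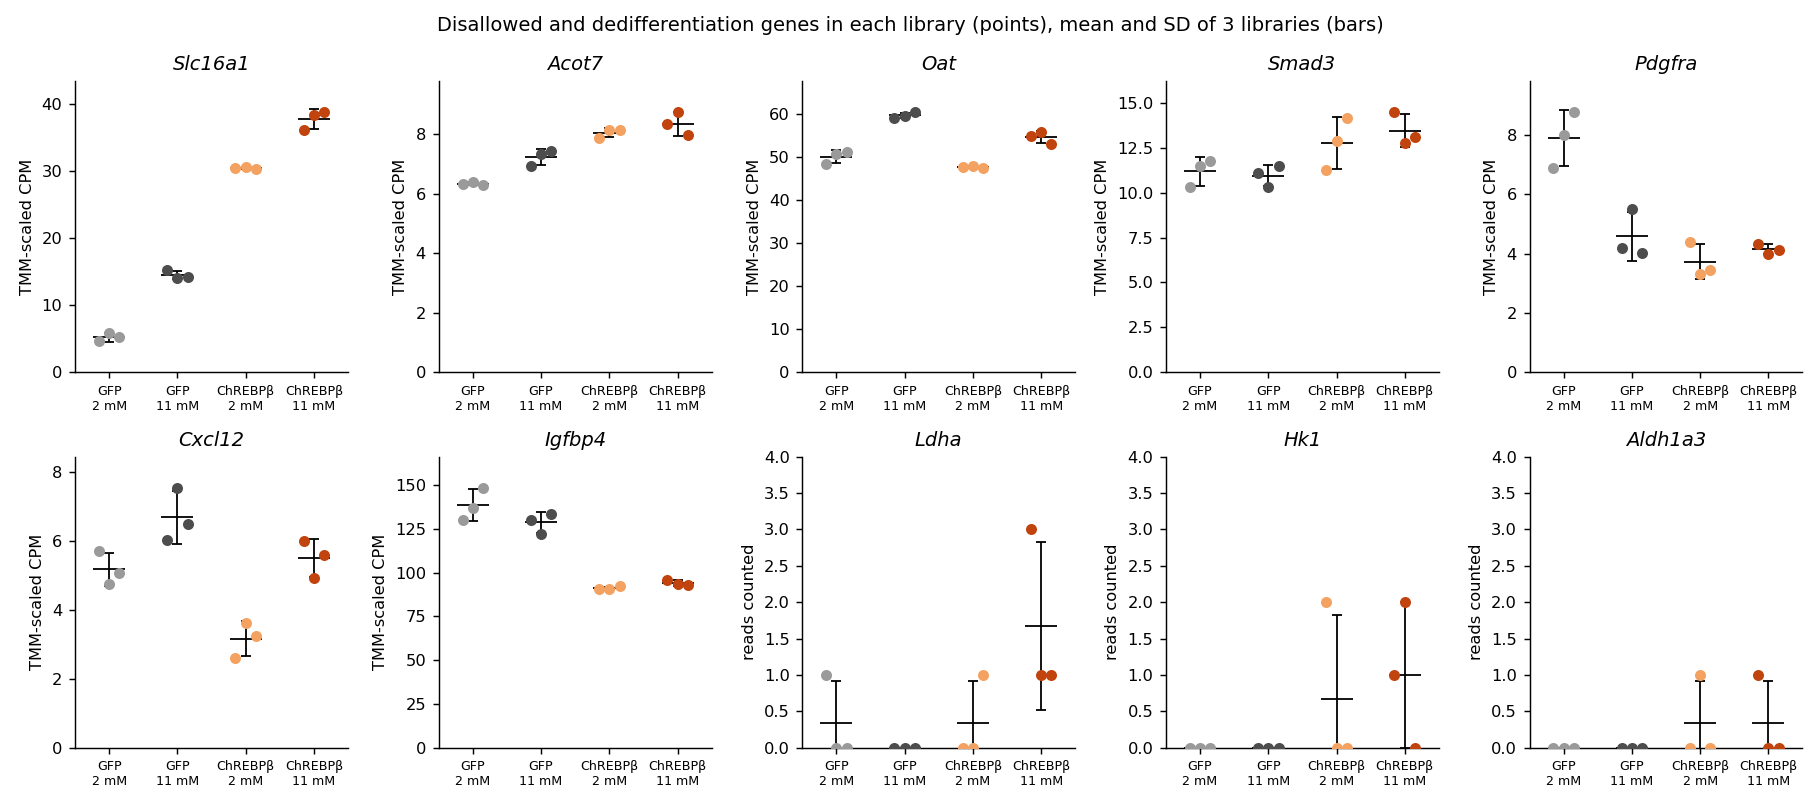
Level of each of the 10 genes in each of the 12 libraries, as points by group, with the mean and SD of 3 libraries. The y axis is TMM-scaled CPM for the 7 tested genes and the number of reads counted for Ldha, Hk1 and Aldh1a3, which had at most 3 reads in any library. Slc16a1 rises from group to group with no overlap, from 4.56 CPM in its lowest library to 38.8 CPM in its highest.

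Slc16a1 had the widest range of the 7 genes, with group means that spanned 2.87 on the log2 scale. It was at 4.56, 5.77 and 5.16 CPM with GFP in 2 mM glucose (5.16 ± 0.608, SD, n = 3). It was at 15.2, 14.1 and 14.2 CPM with GFP in 11 mM glucose. In the ChREBPβ libraries it stood at 30.5, 30.6 and 30.3 CPM at 2 mM and at 36.1, 38.4 and 38.8 CPM at 11 mM. No 2 of the 4 groups overlapped, and cells with ChREBPβ at 2 mM were above GFP cells at 11 mM.

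In 2 mM glucose ChREBPβ raised Slc16a1 by a log2 fold change of 2.55 (SE 0.08, edgeR QL adjusted p = 3.83e-16), or 5.86-fold. At 11 mM the increase was 1.38 (SE 0.06, edgeR QL adjusted p = 4.78e-13), or 2.60-fold. Glucose raised it by 1.48 with GFP (SE 0.08, edgeR QL adjusted p = 7.4e-11) and by 0.31 with ChREBPβ (SE 0.06, edgeR QL adjusted p = 0.00258). The ChREBPβ effect was smaller at 11 mM than at 2 mM, by a difference of -1.17 on the log2 scale (SE 0.10, edgeR QL adjusted p = 1.93e-07).

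Both lactate genes carried the E-box CACGTG in the RefSeq promoter window, which runs from 250 bases before to 50 bases after the annotated start in the GRCr8 assembly. ChREBP binds carbohydrate response elements, which are built from a pair of E-box-like motifs, so CACGTG was searched in all windows on both strands. It was in 2 of the 12 windows of the 10 genes, those of Slc16a1 and Ldha, and in 6.43% of the 33365 windows of all genes. The windows are shown because Slc16a1 changed most and Ldha, with the same motif, was listed at 3 reads or fewer in every library. CACGTG is in capitals, starting 216 bases before the start of Slc16a1 and 87 bases before that of Ldha. Slc16a1 lies at chr2:194812410-194812709 and Ldha at chr1:106507842-106508141, both on the plus strand.
Slc16a1: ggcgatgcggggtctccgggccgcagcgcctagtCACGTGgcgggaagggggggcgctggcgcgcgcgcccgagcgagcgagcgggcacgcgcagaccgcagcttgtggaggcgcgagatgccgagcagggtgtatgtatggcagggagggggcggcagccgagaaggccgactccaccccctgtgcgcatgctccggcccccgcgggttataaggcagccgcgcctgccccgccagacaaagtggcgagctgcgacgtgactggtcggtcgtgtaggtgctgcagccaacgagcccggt
Ldha: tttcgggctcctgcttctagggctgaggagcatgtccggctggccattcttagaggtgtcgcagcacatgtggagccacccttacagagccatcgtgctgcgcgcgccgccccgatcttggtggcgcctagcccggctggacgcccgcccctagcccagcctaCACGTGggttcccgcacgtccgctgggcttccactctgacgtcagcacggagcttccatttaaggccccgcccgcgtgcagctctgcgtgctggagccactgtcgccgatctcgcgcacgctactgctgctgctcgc

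The shorter ACGTG, which lies within CACGTG on either strand, was in 4 of the 12 windows of the 10 genes (of Slc16a1, Ldha, Hk1 and Oat). It was in 19.3% of all windows. The full carbohydrate response element consensus, searched on both strands, was in 0 windows of the 10 genes and in 0.0749% of all windows. Such matches describe the letters of these windows and are not evidence of binding.

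Ldha was listed at 1, 0 and 0 reads with GFP at 2 mM and at 0 reads in each library with GFP at 11 mM. With ChREBPβ it was listed at 0, 0 and 1 reads at 2 mM and at 3, 1 and 1 reads at 11 mM. No library exceeded 3 reads, the floor used here, which is the upper limit that a count of 0 leaves for the expected count and equals 0.0496 to 0.116 CPM depending on the library. Ldha did not pass the filter on low counts and was not tested. Tpi1, a glycolytic enzyme that cells generally need and that was looked at after its values were seen, was listed with only 5 to 23 reads per library, while 6 other glycolytic enzymes had between 10481 and 145047 reads. How the counting treated genes with near-identical copies elsewhere in the genome is not given in the sources used here, so for Ldha, Hk1 and Aldh1a3 only the listed counts are given.

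Other genes of lactate and pyruvate handling did not move one way. Of 14 tested besides the members, 4 rose and 3 fell with ChREBPβ at 2 mM (21.0% of all genes rose and 23.2% fell). At 11 mM 3 rose and 3 fell (14.3% of all genes rose and 19.1% fell). Ldhb, the other main lactate dehydrogenase subunit, was at 47.5 ± 2.81 CPM with GFP against 60.5 ± 3.24 CPM with ChREBPβ in 2 mM (log2 fold change 0.35, edgeR QL adjusted p = 3.91e-05). With library totals in place of TMM its change of 0.25 was under the minimum fold. At 11 mM its log2 fold change was 0.087 (edgeR QL adjusted p = 0.208). Ldhd, which oxidizes D-lactate in mitochondria, fell in 2 mM glucose from 7.57 ± 0.884 to 3.19 ± 0.155 CPM, and in 11 mM from 5.34 ± 0.0322 to 3.27 ± 0.212 CPM.

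The pyruvate dehydrogenase kinases, which switch off entry of pyruvate into the citric acid cycle, split. Pdk1 rose by 0.69 at 2 mM and 0.34 at 11 mM on the log2 scale, and Pdk2 by 0.97 and 1.43. With library totals the Pdk1 change at 11 mM was under the minimum fold. Pdk3 fell by 0.35 and 0.45 at the same concentrations. Mpc1, a subunit of the mitochondrial pyruvate carrier, fell by 0.43 and 0.31. Mpc2, of the same carrier, was not called at either (32.4 against 30.8 CPM at 2 mM, 34.3 against 31.9 CPM at 11 mM). Pdha1, of pyruvate dehydrogenase itself, rose in 2 mM glucose from 99.7 ± 4.2 to 123 ± 1.58 CPM. That call was lost with library totals (0.20), and Pdha1 was not called at 11 mM. The chaperone Bsg, which brings Slc16a1 to the cell surface, was at 832 ± 42.1 CPM with GFP against 810 ± 12.7 CPM with ChREBPβ in 2 mM (log2 fold change -0.039, SE 0.05, edgeR QL adjusted p = 0.54). At 11 mM its log2 fold change was 0.038 (SE 0.05, edgeR QL adjusted p = 0.575). The related carriers Slc16a3 and Slc16a7 had log2 fold changes between -0.02 and 0.32 at 2 mM, and neither passed the test at either concentration (edgeR QL adjusted p between 0.232 and 0.99). Slc16a8, another related carrier, was at 0.47 ± 0.133 CPM with GFP against 0.963 ± 0.269 CPM with ChREBPβ at 11 mM (log2 fold change 1.04, edgeR QL adjusted p = 0.0229), from 8 to 65 reads per library over all groups. That call was lost without library c with GFP (adjusted p = 0.114) and without library b or c with ChREBPβ at 11 mM (adjusted p = 0.0665 and 0.0964). At 2 mM the log2 fold change of Slc16a8 was 0.15 (edgeR QL adjusted p = 0.766).

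Hk1 was listed at 0 reads in all 6 GFP libraries. It was listed at 2, 0 and 0 reads with ChREBPβ at 2 mM and at 1, 2 and 0 reads at 11 mM, all under the floor of 3 reads, and it was not tested. Of its paralogs, Hk2 and Hk3 rose with ChREBPβ at both concentrations from very low counts. Hk2 was at 0.222 ± 0.0945 CPM with GFP against 0.852 ± 0.134 CPM with ChREBPβ in 2 mM (log2 fold change 1.97, edgeR QL adjusted p = 9.45e-05). At 11 mM it was at 0.257 ± 0.0422 and 0.759 ± 0.0967 CPM (log2 fold change 1.56, edgeR QL adjusted p = 0.000434). Hk3 was counted 0 to 8 times in a GFP library and 19 to 76 times in a ChREBPβ library.

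Acot7, a thioesterase that cleaves long-chain acyl-CoA, was at 6.32, 6.41 and 6.31 CPM with GFP in 2 mM glucose, and at 6.95, 7.34 and 7.45 CPM in 11 mM. Under ChREBPβ its values were 7.88, 8.16 and 8.15 CPM at 2 mM and 8.34, 8.75 and 7.97 CPM at 11 mM. Every ChREBPβ library was above every GFP library, but the steps were small. ChREBPβ raised it by 0.35 at 2 mM (SE 0.09, edgeR QL adjusted p = 0.00211), and with library totals the change of 0.25 was under the minimum fold. At 11 mM the log2 fold change of 0.21 (SE 0.08, edgeR QL adjusted p = 0.0418) was under the minimum fold. The difference between these effects was -0.14 (SE 0.12, edgeR QL adjusted p = 0.566).

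Of 8 other thioesterases tested, 2 rose at 11 mM (14.3% of all genes rose). They were Acot2, with a log2 fold change of 0.35 (edgeR QL adjusted p = 0.0215), and Them4, with 0.29 (edgeR QL adjusted p = 0.00419). Both calls were lost with library totals, that of Acot2 also without GFP replicate a (0.27) or ChREBPβ replicate a (0.33) or b (0.31), and that of Them4 without GFP replicate a (0.25) or ChREBPβ replicate c (0.23), all at 11 mM. At 2 mM edgeR called 0 of the 8, against 44.1% of all genes. Them4 was at 0.25 there, and passed without GFP replicate a (0.305) or c (0.271) or ChREBPβ replicate a (0.284) at 2 mM. DESeq2 also called 0 of the 8, and 3 had an unadjusted p under 0.05. Acot1 and Acot2 are near-identical copies, so their counts are uncertain.

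Oat, the mitochondrial aminotransferase that links ornithine to proline and glutamate, did not pass the call in any comparison. It was at 48.3, 50.7 and 51.2 CPM with GFP in 2 mM glucose, and at 59.1, 59.5 and 60.4 CPM in 11 mM. The ChREBPβ libraries gave 47.7, 47.8 and 47.5 CPM at 2 mM and 54.9, 55.9 and 53.1 CPM at 11 mM. The 2 glucose concentrations did not overlap with either virus. The log2 fold change with glucose was 0.25 with GFP (SE 0.04, edgeR QL adjusted p = 0.000164), which at 1.19-fold was just under the minimum, and passed it without GFP replicate b (0.264) or c (0.27) at 2 mM. With ChREBPβ it was 0.20 (SE 0.04, edgeR QL adjusted p = 0.00718), also under the minimum. The change with ChREBPβ was -0.071 on the log2 scale in 2 mM (edgeR QL adjusted p = 0.182) and -0.13 at 11 mM (edgeR QL adjusted p = 0.019).

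Around Oat, 2 of 12 other genes of ornithine and proline metabolism rose and 2 fell with ChREBPβ at either concentration. Of all genes, 21.0% rose and 23.2% fell at 2 mM, and 14.3% rose and 19.1% fell at 11 mM. Odc1, which turns ornithine into putrescine, was at 131 ± 5.67 CPM with GFP against 435 ± 5.59 CPM with ChREBPβ in 2 mM (log2 fold change 1.73, edgeR QL adjusted p = 1.47e-17). At 11 mM it was at 207 ± 5.76 and 506 ± 15.9 CPM (log2 fold change 1.29, edgeR QL adjusted p = 1.84e-15). Arg1, which makes ornithine from arginine, fell in 2 mM glucose from 412 ± 12.3 to 230 ± 4.09 CPM, and in 11 mM from 351 ± 19.4 to 243 ± 2.57 CPM. Srm, the spermidine synthase, rose by 1.28 at 2 mM, where its level with GFP was uneven between libraries (4.37 ± 2.62 CPM, 42 to 206 reads, and a log2 fold change of 0.84 without GFP replicate c), and showed -0.048 on the log2 scale at 11 mM (edgeR QL adjusted p = 0.872). Ass1, an enzyme of arginine synthesis, rose by 0.53 at 11 mM (edgeR QL adjusted p = 1.42e-05).

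**Figure D2:**
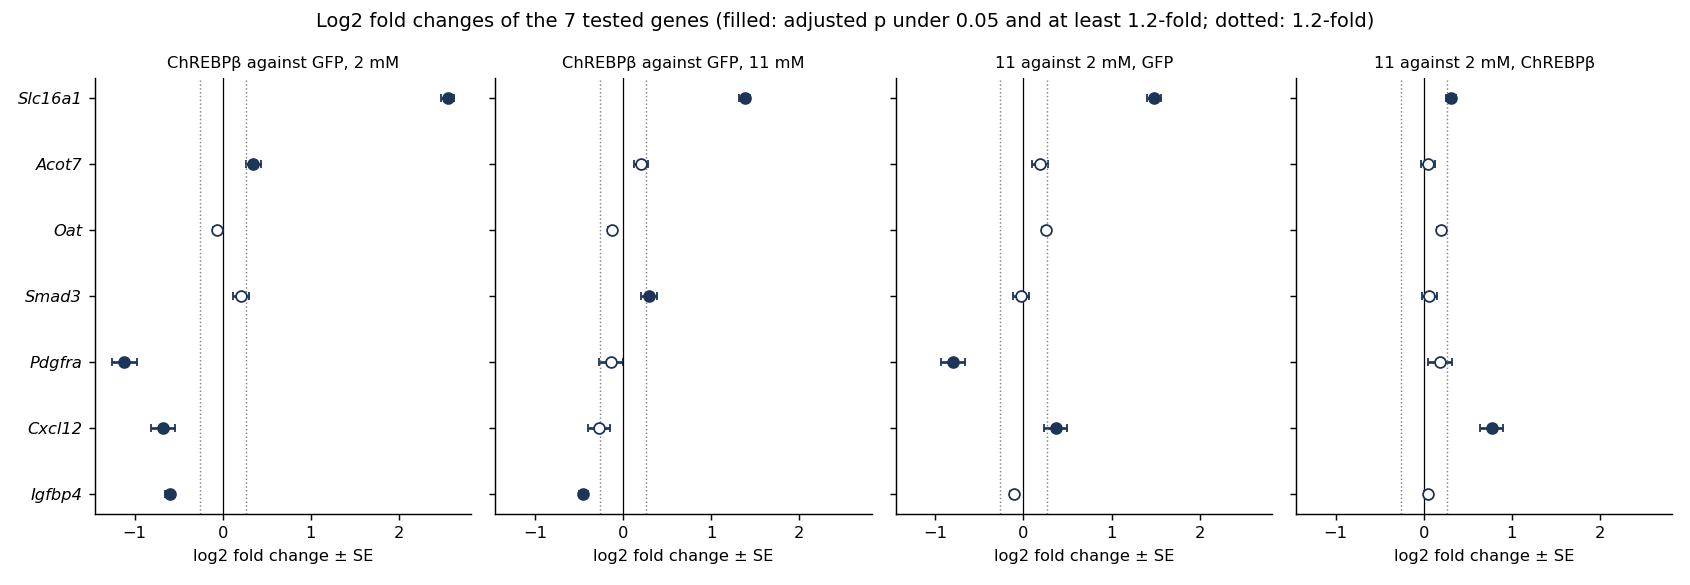
Log2 fold change with its standard error for the 7 tested genes in the 4 comparisons, 1 panel each, with dotted lines at 1.2-fold. Filled points passed the adjusted p of 0.05 and the 1.2-fold minimum: Slc16a1 in all 4 panels, Pdgfra on the left of 0 in the 2 mM panel (-1.12) but not in the 11 mM panel (-0.13), and Oat in none.

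Pdgfra, the receptor for PDGF that marks mesenchymal cells and immature or replicating β-cells, was highest with GFP at 2 mM, at 6.91, 8.02 and 8.78 CPM. It was at 4.2, 5.52 and 4.02 CPM with GFP in 11 mM glucose. With ChREBPβ it was at 4.40, 3.32 and 3.46 CPM at 2 mM and at 4.33, 4.0 and 4.11 CPM at 11 mM. The GFP libraries at 2 mM stood above all others, and the other 3 groups overlapped. ChREBPβ lowered it at 2 mM, by a log2 fold change of -1.12 (SE 0.14, edgeR QL adjusted p = 1.08e-06), or 2.17-fold. At 11 mM the log2 fold change was -0.13 (SE 0.14, edgeR QL adjusted p = 0.444).

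Glucose lowered Pdgfra with GFP, by a log2 fold change of -0.80 (SE 0.14, edgeR QL adjusted p = 0.000137), while with ChREBPβ the value was 0.18 (SE 0.14, edgeR QL adjusted p = 0.505). The difference of the ChREBPβ effects between 11 and 2 mM was 0.98 (SE 0.20, edgeR QL adjusted p = 0.00338). Pdgfra is also a marker of fibroblasts. The other fibroblast markers summed to 0 to 0.117 CPM in the GFP libraries and to 0.481 to 1.11 CPM in the ChREBPβ libraries. Most of the ChREBPβ sum was Pdgfrb, with means of 0.656 CPM at 2 mM and 0.824 CPM at 11 mM. Col1a1 had 0 to 5 reads per library and Col3a1 at most 1. The remaining 2 of 5 (Dcn and Lum) were at 0 reads in every library.

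Of the PDGF ligands, Pdgfb and Pdgfa rose. Pdgfb rose in 2 mM glucose from 2.83 ± 0.656 to 10.7 ± 0.649 CPM (log2 fold change 1.91, edgeR QL adjusted p = 1.96e-10), and in 11 mM from 2.84 ± 0.398 to 11.9 ± 0.504 CPM (log2 fold change 2.07, edgeR QL adjusted p = 2.65e-11). Pdgfa rose by 0.66 and 0.59 at these concentrations. Pdgfc had log2 fold changes of 0.24 and 0.31 and did not pass the test at either (edgeR QL adjusted p = 0.443 and 0.324), and Pdgfd, with 0 to 3 reads per library, was not tested. Pdgfrb, the other receptor, was counted 0 or 1 times in each GFP library and 23 to 55 times in each ChREBPβ library. The receptor-like Pdgfrl fell by 1.61 at 2 mM and 1.30 at 11 mM on the log2 scale. In all, 3 of the 5 tested PDGF genes besides Pdgfra rose and 1 fell at either concentration. Of all genes, 21.0% rose and 23.2% fell at 2 mM, and 14.3% rose and 19.1% fell at 11 mM.

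Igfbp4, a secreted protein that binds insulin-like growth factors, fell with ChREBPβ at both concentrations. It was at 130.1, 136.9 and 148.4 CPM with GFP in 2 mM glucose, and at 130.1, 122.2 and 133.7 CPM in 11 mM. ChREBPβ cells had 90.5, 90.7 and 92.2 CPM at 2 mM and 95.8, 93.5 and 93.0 CPM at 11 mM. All 6 GFP libraries were above all 6 ChREBPβ libraries. The log2 fold change was -0.60 in 2 mM glucose (SE 0.05, edgeR QL adjusted p = 1.98e-09) and -0.45 at 11 mM (SE 0.05, edgeR QL adjusted p = 1.58e-07). Glucose gave -0.11 with GFP (edgeR QL adjusted p = 0.098) and 0.046 with ChREBPβ (edgeR QL adjusted p = 0.649).

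Among the IGF genes around it more fell than rose. Of 12 tested, 8 fell and 1 rose with ChREBPβ at 2 mM (23.2% of all genes fell and 21.0% rose). At 11 mM 6 fell and 2 rose (19.1% of all genes fell and 14.3% rose). The receptor Igf1r fell in 2 mM glucose from 33.3 ± 2.42 to 15.8 ± 0.414 CPM (log2 fold change -1.06, edgeR QL adjusted p = 1.06e-09), and in 11 mM from 30 ± 2.27 to 16.5 ± 1.97 CPM (log2 fold change -0.85, edgeR QL adjusted p = 2.25e-08). Pappa2, a protease that cleaves IGF binding proteins, showed -1.76 on the log2 scale at 2 mM and -1.68 at 11 mM. Its paralog Pappa, with 8 to 47 reads per library, rose at 11 mM from 0.27 ± 0.0386 to 0.763 ± 0.0567 CPM. At 2 mM Pappa was at 0.343 ± 0.0457 and 0.644 ± 0.385 CPM and was not called. The binding protein Igfbp3 had -0.81 and -0.63, and Igfbp7 had -0.87 and -0.90. Igf2r, which clears IGF2 from the cell surface, rose by 0.45 and 0.49. Median log2 fold changes over the 12 genes were -0.69 at 2 mM and -0.32 at 11 mM, when those of all genes were -0.017.

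Smad3, which carries TGFβ signals to the nucleus, was at 10.3, 11.5 and 11.8 CPM with GFP in 2 mM glucose, and at 11.1, 10.3 and 11.5 CPM in 11 mM. The values with ChREBPβ were 11.3, 12.9 and 14.2 CPM at 2 mM, which overlapped the GFP libraries, and 14.5, 12.8 and 13.1 CPM at 11 mM, which did not. It rose at 11 mM by 0.29 on the log2 scale (SE 0.09, edgeR QL adjusted p = 0.0079), or 1.23-fold. That call was lost with library totals (0.21) and, under the minimum fold, without GFP replicate b (0.255) or ChREBPβ replicate a (0.24) at 11 mM. At 2 mM the log2 fold change was 0.20 (SE 0.09, edgeR QL adjusted p = 0.0611), and it passed at 0.28 without the shallow ChREBPβ replicate a. The difference between the effects was 0.091 (SE 0.13, edgeR QL adjusted p = 0.757).

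Among 15 other TGFβ genes tested, 3 rose and 3 fell with ChREBPβ at 2 mM (21.0% of all genes rose and 23.2% fell). At 11 mM 5 rose and 2 fell (14.3% of all genes rose and 19.1% fell). The ligands split. Tgfb3 rose in 2 mM glucose from 0.843 ± 0.323 to 3.05 ± 0.412 CPM, and in 11 mM from 1.23 ± 0.385 to 2.98 ± 0.476 CPM (log2 fold changes 1.81 and 1.31). Tgfb2 fell by 1.03 and 1.21. Tgfb1 showed -0.008 on the log2 scale at 2 mM (edgeR QL adjusted p = 0.978) and rose by 1.16 at 11 mM (edgeR QL adjusted p = 0.000176), from 0.856 ± 0.193 to 1.92 ± 0.184 CPM. At 2 mM it was at 1.71 ± 0.277 CPM with GFP and 1.74 ± 0.318 CPM with ChREBPβ. Its log2 fold change from 2 to 11 mM with GFP was -1.01, which passed the test. It had 29 to 114 reads per library. The coreceptor Tgfbr3 rose by 0.71 and 0.66. Smad2, the partner closest to Smad3, had log2 fold changes of -0.004 and -0.033 (edgeR QL adjusted p = 0.953 and 0.603).

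Cxcl12, a chemokine that attracts cells carrying CXCR4, was at 5.70, 4.75 and 5.06 CPM with GFP in 2 mM glucose, and at 6.02, 7.53 and 6.47 CPM in 11 mM. In ChREBPβ cells it was at 2.61, 3.62 and 3.24 CPM at 2 mM and at 5.99, 4.91 and 5.60 CPM at 11 mM. The ChREBPβ libraries at 2 mM were below all others, and those at 11 mM overlapped GFP at 2 mM. ChREBPβ lowered it at 2 mM, by a log2 fold change of -0.68 (SE 0.14, edgeR QL adjusted p = 0.000338). At 11 mM the log2 fold change was -0.28 (SE 0.12, edgeR QL adjusted p = 0.0689), and it passed with library totals (-0.36) and without replicate a of GFP or of ChREBPβ at 11 mM (-0.34 each).

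Glucose raised Cxcl12 with ChREBPβ by 0.77 (SE 0.13, edgeR QL adjusted p = 0.00086). With GFP the rise was 0.37 (SE 0.13, edgeR QL adjusted p = 0.035). The GFP call was lost with library totals (0.34, edgeR QL adjusted p = 0.0574), and without GFP replicate b (0.31, edgeR QL adjusted p = 0.127) or c (0.36, edgeR QL adjusted p = 0.0827) at 2 mM, or b (0.28, edgeR QL adjusted p = 0.133) or c (0.39, edgeR QL adjusted p = 0.0591) at 11 mM. The difference between the ChREBPβ effects was 0.40 (SE 0.19, edgeR QL adjusted p = 0.218), so the effects were not shown to differ. Of its receptors, Cxcr4 fell in 2 mM glucose from 1.28 ± 0.502 to 0.34 ± 0.153 CPM, and in 11 mM from 1.05 ± 0.23 to 0.387 ± 0.0897 CPM. The scavenger receptor Ackr3 rose by 0.34 at 2 mM (edgeR QL adjusted p = 0.0222), a call lost with library totals (0.24) and without GFP replicate b (0.255) or ChREBPβ replicate b (0.227) at 2 mM.

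Aldh1a3 was listed at 0 reads in all 6 GFP libraries, and at 1 read in a single library with ChREBPβ at each glucose concentration. These counts are under the floor of 3 reads, and the gene did not pass the filter on low counts. Among its paralogs, Aldh1a1 was at 14.1 ± 1.45 CPM with GFP against 10.8 ± 0.458 CPM with ChREBPβ in 2 mM (log2 fold change -0.39, edgeR QL adjusted p = 0.000502). At 11 mM its log2 fold change was -0.058 (edgeR QL adjusted p = 0.572). Aldh1a2 fell at both, from 9 to 29 reads in a GFP library to 1 to 14 reads in a ChREBPβ library. None of the tested paralogs of Aldh1a3 that are named here rose.

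The other retinoid genes split. Of 11 other retinoid genes tested, 4 rose and 4 fell with ChREBPβ at 2 mM (21.0% of all genes rose and 23.2% fell). At 11 mM 4 rose and 2 fell (14.3% of all genes rose and 19.1% fell). Those that rose included the retinoic acid binding proteins. Crabp1 was at 50.8 ± 6.59 CPM with GFP against 322 ± 6.48 CPM with ChREBPβ in 2 mM (log2 fold change 2.66, edgeR QL adjusted p = 2.57e-16), and at 89.5 ± 8.56 and 358 ± 22.6 CPM at 11 mM (log2 fold change 2.00, edgeR QL adjusted p = 1.91e-14). Crabp2 rose by 3.02 and 2.73. Cyp26b1, which degrades retinoic acid, rose by 2.00 and 2.02. The retinoic acid receptor Rara fell by 0.42 and 0.28, the latter under the minimum fold with RLE factors or DESeq2 and without GFP replicate b at 11 mM (-0.252).

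Of 25 further genes on published lists of β-cell disallowed genes, 18 could be tested. With ChREBPβ at 2 mM 3 rose and 9 fell (21.0% of all genes rose and 23.2% fell). At 11 mM 3 rose and 6 fell (14.3% of all genes rose and 19.1% fell). Transglutaminase 2 (Tgm2) rose in 2 mM glucose from 44.3 ± 1.14 to 104 ± 0.189 CPM, and in 11 mM from 49.4 ± 2.16 to 107 ± 6.34 CPM (log2 fold changes 1.24 and 1.11). Parp3, which helps repair DNA breaks, fell by 1.07 and 0.74. Tgfb2, counted here too, fell by 1.03 and 1.21. Fam13a fell by 1.05 at 2 mM and showed -0.47 on the log2 scale at 11 mM (edgeR QL adjusted p = 0.0561), a value that passed at -0.61 without ChREBPβ replicate b at 11 mM. Median log2 fold changes over the 18 were -0.34 and -0.26, when those of all genes were -0.017.

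Of 11 other dedifferentiation and progenitor genes in the table, 8 could be tested, and 2 rose and 4 fell with ChREBPβ at either concentration. Of all genes, 21.0% rose and 23.2% fell at 2 mM, and 14.3% rose and 19.1% fell at 11 mM. Sox9, a factor of pancreatic progenitors and ducts, rose in 2 mM glucose from 0.838 ± 0.219 to 8.19 ± 0.115 CPM, and in 11 mM from 1.08 ± 0.131 to 8.88 ± 0.779 CPM (log2 fold changes 3.26 and 3.04). Hes1, a target of Notch, rose by 2.85 and 2.20. The endocrine progenitor factor Fev fell by 0.85 and 0.59, and gastrin (Gast) by 1.56 and 1.14. Neurog3 and Nanog were at 0 reads in all 12 libraries. The duct markers summed to 103 to 139 CPM in the GFP libraries and 143 to 162 CPM in the ChREBPβ libraries, nearly all of it Krt7, with Cftr at 0 in every library.

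**Figure D3:**
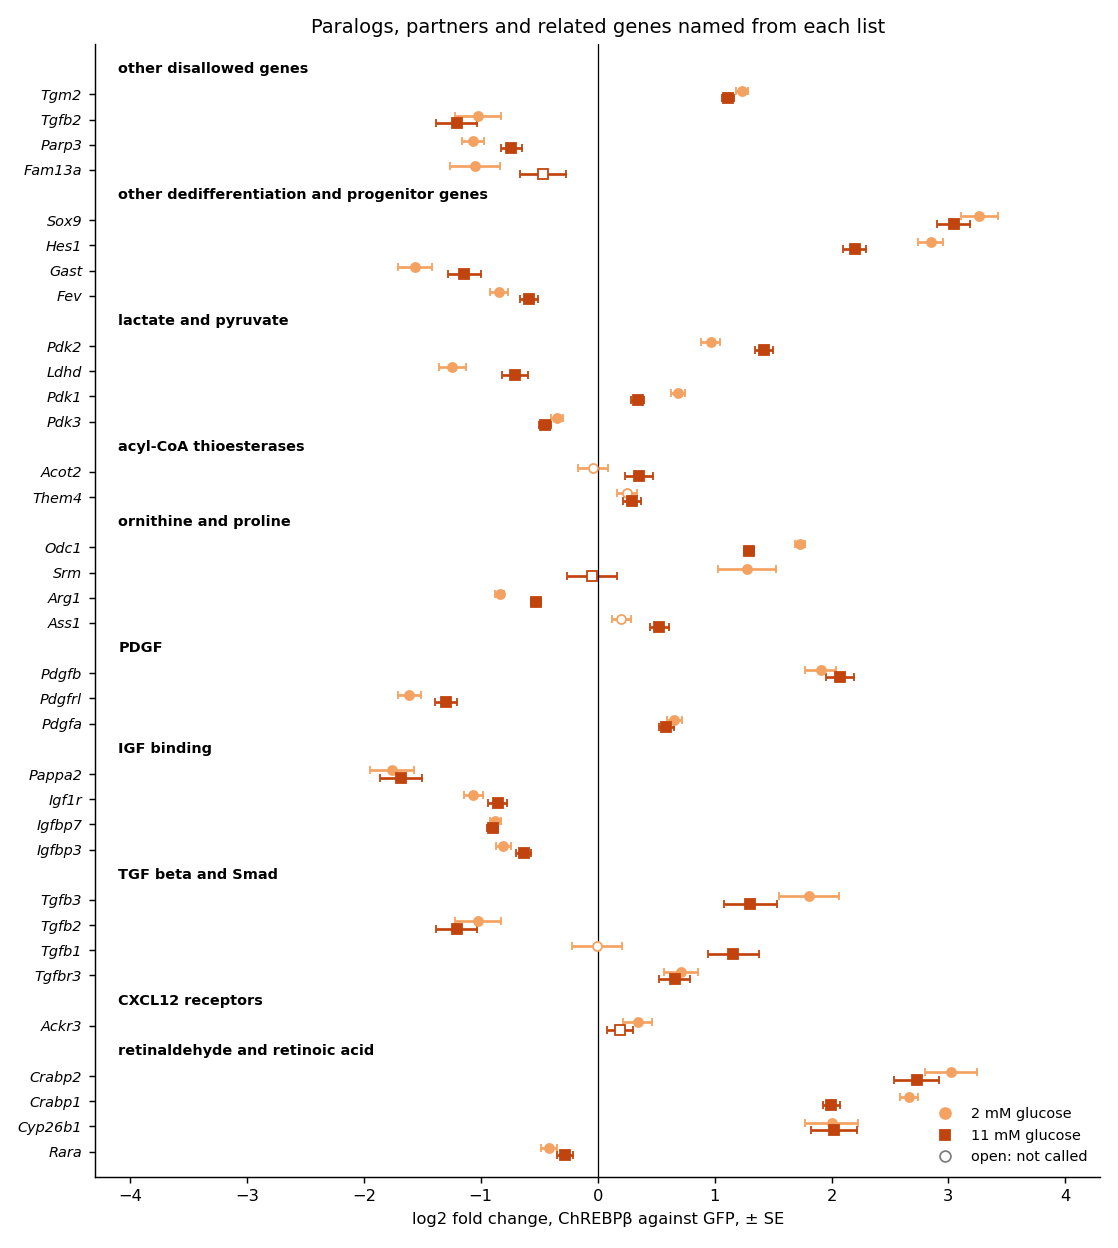
Log2 fold change with ChREBPβ against GFP, with its standard error, at 2 mM (circles) and 11 mM (squares) for up to 4 called genes of each list of related genes, all with a mean of at least 1 CPM. Genes named at lower levels, such as Hk3, Pdgfrb and Slc16a8, are not plotted. Open symbols did not pass the test. Among the plotted genes, rises in Sox9 (3.26 at 2 mM) and Crabp2 (3.02 at 2 mM) stand at the right, and falls in Pappa2 (-1.76) and Pdgfrl (-1.61) at the left.

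The genes whose log2 CPM followed the members most closely over the 12 libraries were sought among 10468 genes that averaged 5 CPM or more, for the 3 members of widest range. Those closest to Slc16a1 were Hbegf (Pearson r = 0.997), Galnt9 (0.9961) and Slc9b2 (0.9957). For Pdgfra they were Myt1 (0.9538), Dhx40 (0.9517) and Camta1 (0.9441), and for Cxcl12 they were Akap7 (0.9311), Gata3 (0.9219) and Foxc1 (0.9196). These correlations describe a likeness over libraries that fall into the same 4 groups and carry no test.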

How the data were processed

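RNA from INS-1-derived 832/13 cells was amplified and sequenced in 12 libraries, 3 for each of 4 groups named by the labels. The authors counted reads per gene and deposited raw counts without normalization; the submitters' processing notes name Rnor_6.0 and edgeR, and the aligner and counting program are not given in the sources used here. The 4 columns of group means in the same table were not used, and the number of other columns of single-sample values was 0. One entry without a gene name, 0.0043% to 0.00601% of a library's counts, was left out.

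The analysis used R 4.3.3, edgeR 4.0.16, limma 3.58.1, DESeq2 1.42.0 and Python 3.11.15. Of 28727 named genes, 14669 passed filterByExpr by group. Counts were TMM-scaled, and a quasi-likelihood fit of all 12 libraries with group as the only factor gave 4 comparisons and the interaction of virus and glucose. A gene was called at an adjusted p under 0.05, Benjamini-Hochberg over all tested genes, and 1.2-fold or more, a minimum taken from the study's methods. The standard error is the log2 fold change divided by the square root of F. The fits were tested on simulated data.

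Related genes were named where called at 2 or 11 mM, up to 4 a list by the larger change, with a mean of at least 1 CPM; paralogs and partners that a result turned on could be named at any level. Members and lists were chosen with earlier results of these data known. Results for some listed genes are not reported here. Genes of like pattern were ranked by Pearson r of log2 CPM with a prior count of 2. Replicate libraries were not duplicates of each other (chi-square per degree of freedom 3.06 to 16.6). RNA was amplified without molecular identifiers, so the limit of 3 reads covers counting error only. Levels were not compared between genes, since transcript lengths were not used here. Promoter windows are from RefSeq on GRCr8, and all 10 members matched. Alternatives were RLE factors, library totals, no filter, a filter of at least 10 counts in every library, DESeq2, the replicate letter as a block, no minimum fold and leaving out each library.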

Additional observations from a re-analysis of the deposited data

Results flagged for a closer look

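The effect of ChREBPβ differed between the glucose concentrations for 2 of the 7 tested genes, by the interaction term of the edgeR fit. It did so for 6.31% of all genes, with a positive difference for 1.56% and a negative one for 4.74%. For Slc16a1, ChREBPβ gave log2 fold changes of 2.55 (2 mM) and 1.38 (11 mM), a difference of -1.172 (edgeR adjusted p = 1.93e-07), and over the alternative settings the difference lay between -1.27 and -1.10. For Pdgfra, it gave -1.12 (2 mM) and -0.13 (11 mM), a difference of 0.982 (edgeR adjusted p = 0.00338), and over the alternative settings it lay between 0.89 and 1.13. The GFP libraries at 2 mM held the lowest Slc16a1 and the highest Pdgfra of the 4 groups. They also held the highest summed β-cell markers, mostly Ins1 and Iapp (15100 to 16900 CPM), and totals of 25754488 to 32938546 counts. The part of these in the result was not tested.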

How the results depend on the processing

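The 35 values of the 7 tested genes were recomputed under 19 settings, giving 665 values, of which 642 kept their direction and their side of the call. The other 23, in 12 of the 35 values, were 10 that newly passed, 9 that no longer passed and 4 that changed sign. The 4 came from leaving out a library and concerned log2 fold changes near 0 that were not called: leaving out each library in turn gave -0.22 to 0.013 for Pdgfra with ChREBPβ at 11 mM, -0.08 to 0.012 for Smad3 with glucose and GFP (0.007 without GFP replicate c at 2 mM, 0.012 without GFP replicate b at 11 mM), and -0.007 to 0.15 for Smad3 with glucose and ChREBPβ. With no minimum fold, 5 in place of 3 of the genes were called with ChREBPβ at 11 mM, by construction. Of all genes, 33.4% were called there with the minimum fold, and the share without it is not given here. Among all genes, also by construction, 5030 in place of 2963 were called with glucose and GFP. With glucose and ChREBPβ, 1100 in place of 567 were called. Library totals moved the median log2 fold change of all genes to -0.116 at 2 mM and -0.101 at 11 mM. Whether the replicate letters pair the libraries was not settled. Deviations of same-lettered libraries correlated between -0.11 and 0.05. The best match had the same letter in 7 of the 12 pairs, among them all 3 letters in 2 of the 4 comparisons of groups. That is a hint from the data and not the design. With the replicate block, 5, 3, 3, 2 and 2 of the genes were called in the 5 comparisons, as without it. Ldha, Hk1 and Aldh1a3 did not pass the main filter and were not tested.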
